A study of Mus musculus with 12 samples.

Results

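The proteasome genes were taken from the coding sequence count table by symbol: every gene whose name begins with Psma, Psmb, Psmc, Psmd, Psme, Psmf or Psmg followed by a number. The rule found 49 of 20504 genes, and the same 49 were in the exon count table. They comprised 7 genes of the 20S alpha ring, 7 of the 20S beta ring, 5 tissue-restricted 20S subunits, 6 ATPases and 11 non-ATPase subunits of the 19S cap, 5 activators or inhibitors and 7 assembly chaperones. Psmc3ip also fell under the rule, but its product is a recombination factor named for binding an ATPase subunit and is not a part of the proteasome. The measurements came from 12 libraries of 6 mice. All mice were 3 months old and carried Camk2a-cre and RiboTag alleles, so that ribosomal protein Rpl22 bore an HA tag in principal excitatory neurons, the cells in which the Camk2a promoter drives Cre. Mice A and B are labelled untreated and, by the study's methods, received Captisol vehicle by oral gavage; mice C and D were given the mTOR kinase inhibitor AZD-8055 at 100 mg/kg by gavage and were killed 1 h later. From the right frontal lobe of each of these 4 mice, 1 poly(A) RNA-Seq library and 1 ribosome footprint library were made. Mice E and F were untreated, and from brain tissue of each, with no lobe named, RNA-Seq was performed on the homogenate (input) and on RNA that precipitated with the HA-tagged ribosomes (IP).

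The 26S proteasome degrades ubiquitin-tagged proteins. Its 20S core is a barrel of alpha and beta rings with the proteolytic sites inside the beta rings, and the 19S cap recognises, unfolds and de-ubiquitylates substrates and feeds them into the core. In immune cells and after interferon, the inducible subunits Psmb8, Psmb9 and Psmb10 replace the catalytic subunits Psmb5, Psmb6 and Psmb7. Neurons rely on proteasomes for synaptic protein turnover as well as for general protein quality control.

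Library depth ranged from 3503873 to 15585831 counts in coding sequences, with the footprint libraries of mice B, C and D the shallowest. The 49 genes took 0.461% (mouse E) and 0.499% (mouse F) of input coding sequence counts, and their IP shares were 0.93% and 1.04%. In the RNA-Seq libraries of mice A to D the share lay between 0.542% and 0.588%, and in the footprint libraries between 0.594% and 0.644%. The IP share thus exceeded the input share in each mouse, and the vehicle and AZD-8055 mice overlapped in RNA-Seq but not in footprints. Each group held 2 mice, so the tests below rest on the spread between 2 animals per group, pooled over the groups of a fit.

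The first comparison asked which proteasome transcripts were carried by ribosomes of Camk2a-expressing neurons relative to whole tissue. With edgeR on exon counts, 45 of the 49 genes had enough counts to be tested (a mean of at least 37 per library). Of these, 39 were higher in IP and 1 was lower at an adjusted p under 0.05, where 33.7% of all 13254 genes tested were called higher and 35.7% lower. When a fold over 2 was also required, 24 proteasome genes were higher and 1 was lower, against 11.7% and 21.8% of all genes. The median log2 enrichment of the 45 genes was 1.07 (a fold of 2.1; mouse E, 1.05, and mouse F, 1.09), beside a median of -0.03 for all genes. Enrichment was not particular to proteasome genes. Of the ribosomal protein genes, 73 of 74 were called higher, with a median of 0.92. Of the subunits of the cytosolic chaperonin CCT, 6 of 8 were called higher, with a median of 0.50. In such bulk samples, fewer cells of a type and less RNA per cell cannot be told apart. Scaling by total counts instead of TMM lowered the median of all genes from -0.03 to -0.31, and the median of the proteasome genes was then 0.80. Of the excitatory neuron markers, 5 of 6 were higher in IP, with a median over the 6 of 0.84. Nrgn was the highest at 2.09, while Camk2a itself (0.27, edgeR adjusted p = 0.105) did not pass. All 6 inhibitory neuron, 6 astrocyte, 6 oligodendrocyte, 3 oligodendrocyte precursor and 6 endothelial markers, and 9 of 10 microglial markers, were lower.

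**Figure D1:**
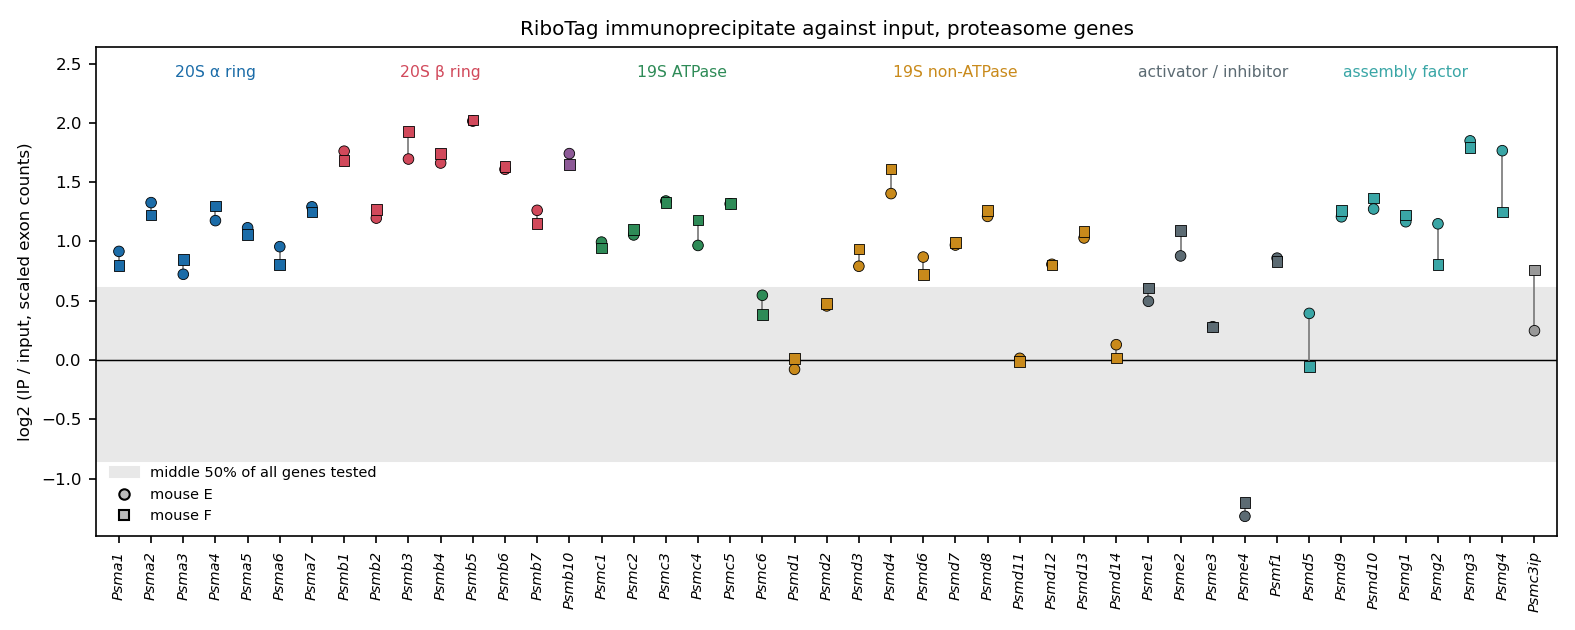
Log2 ratio of scaled exon counts in IP over input for the 45 proteasome genes tested, with circles for mouse E and squares for mouse F, coloured by subunit class (purple, Psmb10; light grey, Psmc3ip); the grey band spans the middle 50% of all genes tested. The beta ring genes lie between 1.15 and 2.02, Psmd1, Psmd11 and Psmd14 lie near 0, and Psme4 lies at -1.32 and -1.20.

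The 20S core genes were all higher in IP. The 7 alpha ring genes, which form the gate of the barrel, ranged from 0.79 for Psma3 to 1.27 for Psma7. The 7 beta ring genes ranged from 1.20 for Psmb7 to 2.02 for Psmb5, with a median of 1.70, and each of the 7 passed the fold limit. Psmb5 (chr14:54614120-54617995, GRCm38.p6), which encodes the chymotrypsin-like site, had scaled exon counts (counts divided by a library's relative TMM size) of 911 in mouse E and 876 in mouse F before precipitation, and of 3683 and 3561 after it. The IP and input libraries did not overlap, and the enrichment was 2.02 ± 0.09 (SE, n = 2 mice, edgeR adjusted p = 5.5e-05), a fold of 4.05. Raw exon counts of Psmb5 were below its coding sequence counts in input (958 against 1389 in mouse E, 1191 against 1724 in mouse F). They were also below them in IP (2870 against 3983, 3198 against 4288), so its exon levels are incomplete. The reason was not tested.

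The 6 ATPases, the unfolding motor of the 19S cap, were also all called higher, from Psmc6 at 0.46 ± 0.11 (SE) to Psmc3 at 1.34 ± 0.08. The non-ATPase subunits were more varied, and 8 of 11 were called higher. The ubiquitin receptor Psmd4 led them at 1.51 ± 0.10, with log2 ratios of 1.40 and 1.61 in the 2 mice. The other 3 were near 0: the scaffold Psmd1, the subunit Psmd11 and Psmd14, the de-ubiquitylating enzyme of the cap. Psmd14 (chr2:61711694-61800376) had scaled exon counts of 1254 and 1445 in input and 1372 and 1461 in IP. Its libraries overlapped, and the enrichment was 0.07 ± 0.11 (SE, n = 2, edgeR adjusted p = 0.597). Psmd11 (chr11:80428615-80473248) stood at 1061 and 1088 in input and 1071 and 1079 in IP, and Psmd1 (chr1:86064619-86139295) at 2590 and 2922 in input against 2453 and 2948 in IP. Neither gene's input and IP libraries separated (0.00 ± 0.09 and -0.03 ± 0.12, SE). With total count scaling, Psmc6, Psmd2, Psme1 and Psme3 were no longer called and Psmd11 was called lower (-0.28, edgeR adjusted p = 0.0402).

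Among the regulators, Psme4 was the exception to the enrichment. Psme4 (chr11:30771775-30881150) encodes PA200, a large activator that caps the 20S core without ATP. Its scaled exon counts were 1701 and 1876 in input and 683 and 815 in IP, with no overlap, and its log2 ratio was -1.25 ± 0.12 (SE, n = 2, edgeR adjusted p = 0.000271), which is 2.39-fold lower in IP. The PA28 alpha and beta subunits Psme1 and Psme2 were enriched by 0.55 ± 0.11 and 0.99 ± 0.11 (SE), the nuclear PA28 gamma Psme3 by 0.28 ± 0.09 and the inhibitor Psmf1 by 0.84 ± 0.14. Of the 7 assembly chaperones, 6 were higher, from Psmg2 at 0.97 to Psmg3 at 1.82. The exception, Psmd5, gave log2 ratios of 0.39 in mouse E and -0.06 in mouse F and did not pass (0.18 ± 0.14, edgeR adjusted p = 0.302). Without mouse F, in a fit that took its spread from the RNA-Seq libraries of mice A to D, Psmd5 was called higher at 0.41, and without mouse E it was at -0.02. Psmc3ip, which is no subunit, was at 0.50 ± 0.27 (SE, edgeR adjusted p = 0.145), and without mouse E it was called higher at 0.79.

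On coding sequence counts the median of the proteasome genes was 1.54 in place of 1.07, and Psmd11, Psmd14, Psmd5 and Psmc3ip were then called higher (Psmd11 at 0.35 and Psmd14 at 0.45), Psme3 was no longer called, and Psme4 was at -1.34. The ratio of exon to coding sequence counts for all genes had a median log2 of 0.53 (mouse E) and 0.55 (mouse F) before precipitation, and of 0.83 and 0.93 after it. For the 45 proteasome genes with at least 37 coding sequence counts in each of the 4 libraries on which the ratio was taken, the median was between 0.06 and 0.07 in all 4 libraries. The share of exon counts outside coding sequence was thus smaller for the proteasome genes than for the median gene, and it moved less between input and IP.

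The 3 inducible catalytic subunits did not move together. Psmb10 (chr8:105935728-105938392) had 604 and 584 scaled exon counts in input and 2018 and 1827 in IP, an enrichment of 1.70 ± 0.10 (SE, n = 2, edgeR adjusted p = 7.8e-05), above that of Psmb7, which it replaces, in both mice. Psmb8 (chr17:34198195-34201454) and Psmb9 (chr17:34182030-34187330), which lie beside each other in the region of the class II histocompatibility genes, were too low for the test. Psmb8 had raw exon counts of 53 and 62 in input and 7 and 7 in IP, and Psmb9 had 23 and 33 in input and 1 and 10 in IP. Both were lower in each IP library than in either input. With the count limit lowered to a mean of 10, Psmb8 was called lower at -2.42 ± 0.36 (SE, edgeR adjusted p = 0.00119). The summed microglial markers were lower as well, at 8985 and 8804 scaled counts in input and 815 and 852 in IP, with 9 of 10 called lower and none at 0 in any library; their part in the values of Psmb8 and Psmb9 was not tested. The remaining tissue-restricted genes, Psma8 of the testis and Psmb11 of the thymus, had at most 7 exon counts in any of these libraries.

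**Figure D2:**
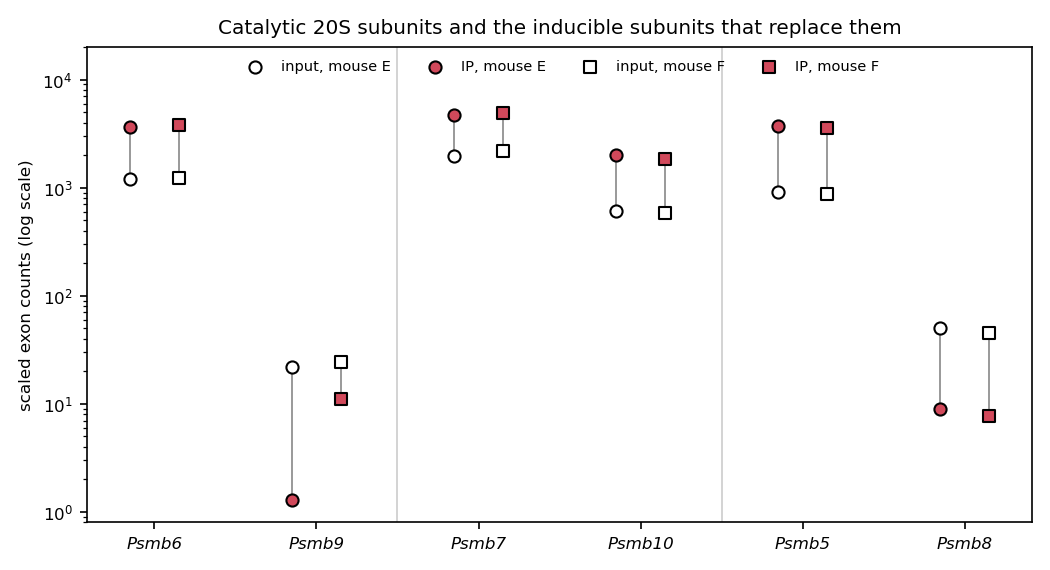
Scaled exon counts (log scale) in input (open) and IP (filled) of mouse E (circles) and mouse F (squares) for each constitutive catalytic subunit, Psmb6, Psmb7 and Psmb5, beside the inducible subunit that can replace it, Psmb9, Psmb10 and Psmb8. The constitutive subunits and Psmb10 rise from input to IP in both mice, whereas Psmb8 (7 raw counts in each IP library) and Psmb9 fall.

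The second comparison asked how many ribosome footprints each transcript carried. Translation efficiency (TE) is the ratio of scaled footprint counts to scaled RNA-Seq counts in coding sequence, and a log2 TE of 0 is the level that the scaling sets as typical. In the vehicle mice, 44 proteasome genes could be tested with edgeR, of which 27 had a TE above typical and 7 below at an adjusted p under 0.05, beside 36.5% and 37.3% of all 11797 genes. The median log2 TE of the 44 genes was 0.42 (0.38 in mouse A and 0.41 in mouse B), beside 0.06 for all 10880 genes with at least 75 counts of each kind over the 2 mice. That placed the median proteasome gene at percentile 66.9 of all genes. The ribosomal protein genes, another set that encodes 1 large complex, had a median of -0.87, and the 8 subunits of the cytosolic chaperonin CCT had 0.38. Over the 31 constitutive subunits the SD of the log2 TE was 0.42, while mice A and B differed from each other with an SD of 0.10, so the subunits differed in TE by more than the 2 mice did.

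**Figure D3:**
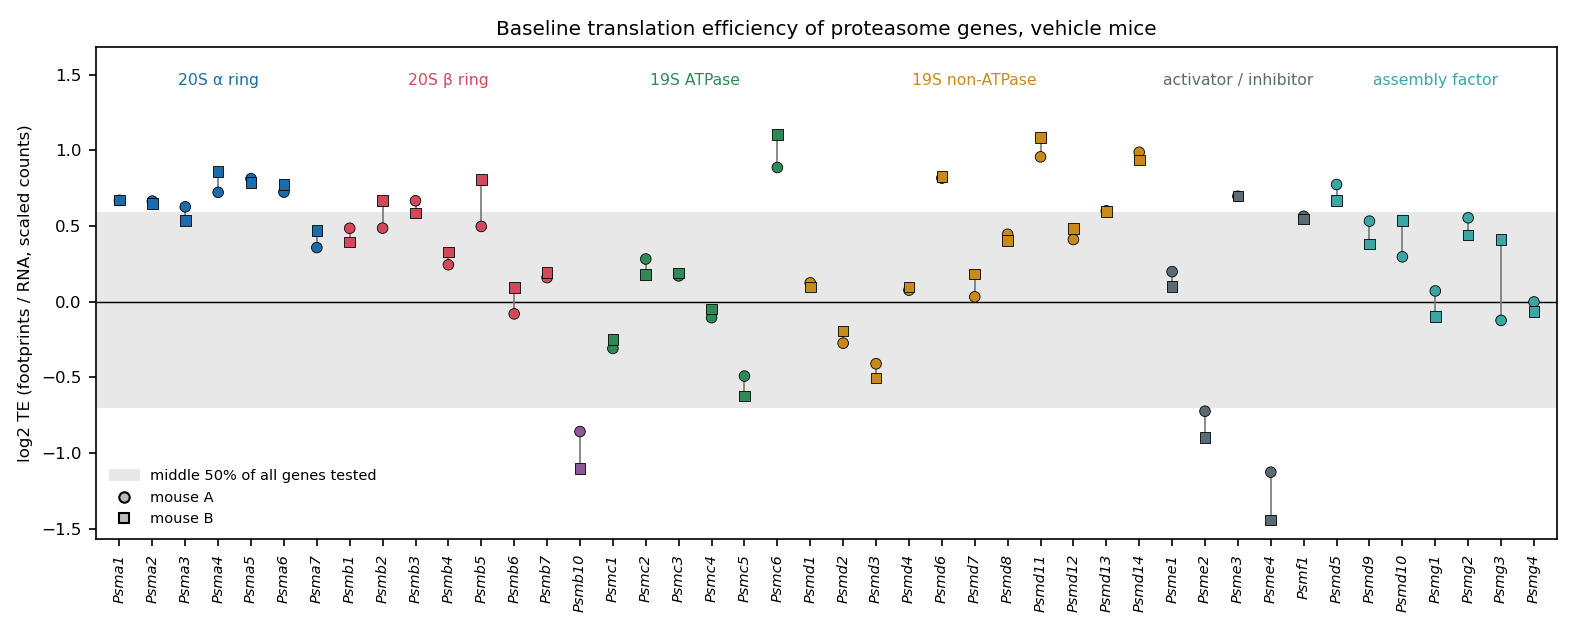
Log2 TE of the 44 proteasome genes tested in the vehicle mice, with circles for mouse A and squares for mouse B, coloured by subunit class (purple, Psmb10); the grey band spans the middle 50% of all genes tested. The alpha ring genes cluster between 0.36 and 0.86, whereas the ATPases run from -0.62 for Psmc5 to 1.11 for Psmc6.

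The alpha ring was uniform. All 7 genes were above typical, from 0.41 ± 0.07 (SE) for Psma7 to 0.80 ± 0.07 for Psma5, with log2 TE values of 0.36 to 0.81 in mouse A and 0.47 to 0.86 in mouse B. In the beta ring, 5 of 7 were called higher. Psmb5 was at 0.50 (mouse A) and 0.81 (mouse B), and Psmb3 was at 0.67 and 0.59. Psmb6, which encodes the caspase-like site, had -0.08 and 0.09, and Psmb6 and Psmb7 did not pass (0.00 ± 0.07 and 0.18 ± 0.10, SE, edgeR adjusted p = 0.97 and 0.125). The inducible Psmb10 stood apart from both rings at -0.86 and -1.10 (-0.96 ± 0.10, SE, edgeR adjusted p = 5e-07), below every constitutive 20S gene in both mice.

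The 6 ATPases, which sit side by side in 1 ring, differed in TE. Their log2 TE had an SD of 0.54, beside 0.99 over all 10880 genes. Psmc6 (chr14:45329823-45349074) had 924 and 723 scaled RNA-Seq counts and 1709 and 1558 scaled footprint counts in mice A and B. Psmc5 (chr11:106256185-106263112) had 2149 and 2130.4 RNA-Seq counts and 1528 and 1384 footprint counts. Footprints exceeded RNA for Psmc6 and fell short of it for Psmc5 in both mice, and their log2 TE were 0.99 ± 0.10 and -0.55 ± 0.07 (SE, n = 2, edgeR adjusted p = 3.9e-07 and 6.7e-06). Psmc1 was also below typical (-0.28), Psmc2 and Psmc3 were above (0.24 and 0.18), and Psmc4 was not called. The calls of Psmc2 and Psmc3 were lost with a mean of at least 10 counts, no filter, total counts (0.10 and 0.04) or without mouse A, that of Psmc3 also without mouse B or C, and that of Psmc1 without mouse A. Of the 11 non-ATPase subunits 6 were higher and 2 lower. Psmd11 and Psmd14 were the highest at 1.03 ± 0.09 and 0.97 ± 0.08 (SE), and Psmd2, which docks ubiquitin shuttle factors, and the lid subunit Psmd3 were below typical at -0.23 ± 0.07 and -0.45 ± 0.07. The ubiquitin receptor Psmd4, the scaffold Psmd1 and the Psmd14 partner Psmd7 lay between (0.09 to 0.12, none called).

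Activators and assembly factors also split. Psme3 (0.71 ± 0.10, SE) and the inhibitor Psmf1 (0.56 ± 0.11) were above typical. Psme2 was below it at -0.80 ± 0.11, while its partner Psme1, with which it builds the PA28 ring, was at 0.15 ± 0.09 and was not called. Psme4 had 819 and 818 scaled RNA-Seq counts but 375 and 301 footprint counts in mice A and B, the lowest log2 TE of the 44 genes at -1.25 ± 0.12 (SE, n = 2, edgeR adjusted p = 8.5e-08), at percentile 9.49 of all genes. It was thus low in the immunoprecipitate relative to input and in footprints relative to RNA-Seq. Of the assembly chaperones, 4 were higher (Psmd5 at 0.72, Psmg2 at 0.49, Psmd9 at 0.48 and Psmd10 at 0.42) and 3 were not called. The call of Psmd10 was lost with DESeq2, no filter, total counts (0.28) or without mouse B (0.30), and those of Psmg2 and Psmd9 without mouse A (0.44 and 0.38). RefSeq lists pseudogenes of Psma5, Psmb5, Psmb6 and Psmb7 and a paralog of Psme2, and 13 of the 49 genes overlap another annotated gene, so uniquely mapped counts of these genes are uncertain in level.

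Enrichment in the IP and TE showed little relation across the proteasome genes: over the 44 genes with both values Pearson's r was 0.06 and Spearman's rho -0.22, beside r = -0.04 over 10833 genes. Psmd11 and Psmd14 combined the highest TE among the 19S non-ATPase subunits with no enrichment, and Psmb10 combined a low TE with a high enrichment. Longer genes had lower enrichment. Across 45 proteasome genes the log2 of the genomic span and the enrichment had r = -0.58 (rho = -0.50), beside r = -0.27 (rho = -0.33) across 12375 genes. Psme4 (109 kb), Psmd14 (88.7 kb) and Psmd1 (74.7 kb) had the longest spans of the genes tested, followed by Psmb7 (55.9 kb, enrichment 1.20) and Psmd11 (44.6 kb). These correlations are across genes of the same few libraries, and genes are not independent replicates.

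The third comparison asked whether mTOR inhibition changed the RNA or the translation of proteasome genes. No proteasome gene was called in TE, in RNA-Seq or in footprints with edgeR at an adjusted p under 0.05, and DESeq2 also called none in any of the 3. At an unadjusted p under 0.05, edgeR gave 1 of 44 genes in TE, 3 of 45 in RNA-Seq and 6 of 44 in footprints, and DESeq2 gave 0, 1 and 3. At that unadjusted threshold, edgeR gave 6.75% of all genes in TE, 8.24% in RNA-Seq and 12.8% in footprints. DESeq2 gave 402 of 11797, 385 of 12182 and 576 of 10695. Calls at an adjusted p under 0.05 were rare over all genes too. In TE 0.0763% were higher and 0.788% lower, in RNA-Seq 0.0575% and 0.0903%, and in footprints 0.0468% and 0.982%. The ribosomal protein genes made up most of the lower calls, with 68 of 76 in TE and 70 of 76 in footprints. Their median change was -0.02 in RNA-Seq and -0.90 in TE, where the median of the proteasome genes was -0.04.

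**Figure D4:**
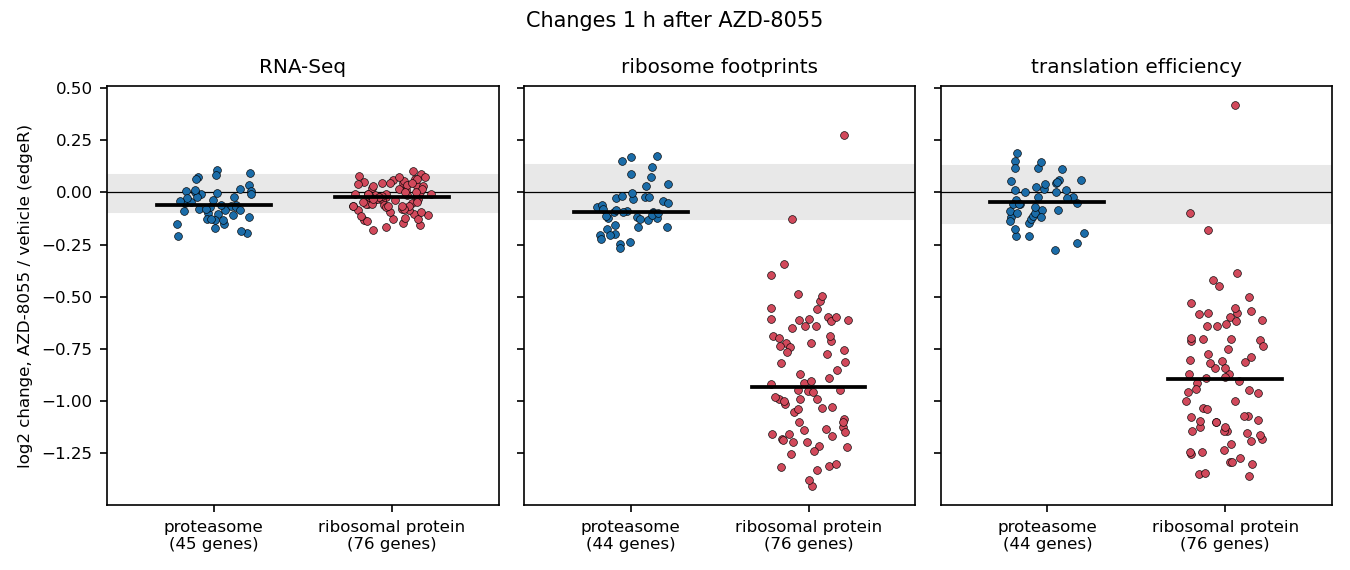
Log2 change 1 h after AZD-8055 relative to vehicle (edgeR, 2 mice per group) in RNA-Seq, ribosome footprints and TE, with a point per proteasome gene (blue) or ribosomal protein gene (red), black bars for the medians and a grey band for the middle 50% of all genes tested. The proteasome genes stay between -0.28 and 0.19 in all 3 panels, and the ribosomal protein genes fall to a median of -0.93 in footprints and -0.90 in TE.

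The values for the proteasome genes were small and lay mostly below 0 in RNA-Seq and footprints. TE changes ran from -0.28 for Psma3 to 0.19 for Psmd9, with standard errors between 0.10 and 0.35. RNA changes ran from -0.21 for Psme4 to 0.11 for Psmb5, and footprint changes from -0.27 for Psma5 to 0.17 for Psmd9. In footprints, 36 of 44 genes had a change below 0 (5321 of 10695 over all genes) with a median of -0.09. The number was 29 of 43 without mouse A and 28 of 44 without mouse D. It was 35 of 44 without mouse B or mouse C. In RNA-Seq, 34 of 45 were below 0 (6207 of 12182 over all genes) with a median of -0.06, but without mouse A only 22 of 45 were. In TE, 26 of 44 were below 0 (6122 of 11797 over all genes), and this number was 22 with total count scaling, 29 without mouse B and 31 without mouse C.

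The lowest footprint change (Psma5) and the lowest TE change (Psma3) were both of alpha ring genes. Psma5 had scaled footprint counts of 1329 and 1276 in the vehicle mice and 1131 and 1036 in the treated mice. The groups did not overlap, but the change of -0.27 ± 0.08 (SE, n = 2 per group) did not pass (edgeR adjusted p = 0.205). Its RNA-Seq counts were 757 and 738 with vehicle and 700.1 and 731 with AZD-8055. Psma3 had 1654 and 1481 footprint counts with vehicle and 1408 and 1244 with AZD-8055, also without overlap, while its RNA-Seq counts overlapped (1070.3 and 1022 against 1035 and 1093). Its TE change of -0.28 ± 0.12 (SE, edgeR adjusted p = 0.646) was the only one at an unadjusted p under 0.05. Footprints of all 7 alpha ring genes were below 0 (median -0.17), and 6 of 7 were in TE (median -0.15). In the beta ring 5 and 3 of 7 were below 0 (medians -0.09 and 0.01). Of the 11 non-ATPase cap genes, 10 were below 0 in footprints (median -0.10) and 11 in TE (median -0.07). Of the 6 ATPases, 5 were below 0 in footprints and 2 in TE. The classes were not tested against each other. When mouse C was left out, footprints of 4 proteasome genes were called lower: Psmc6 at -0.36, Psma3 at -0.33, Psma5 at -0.33 and Psmb7 at -0.27, each against a lone treated mouse whose spread is assumed to be that of the vehicle mice. Calls rose over all genes in that fit as well, to 482 of 10970 lower and 355 higher, from 105 and 5 of 10695. The median SE of the TE change over the proteasome genes was 0.11. With an SE of 0.11, the chaperonin gene Cct4 at -0.51 did not pass (edgeR adjusted p = 0.0512), so a change well above the values of the proteasome genes could also go uncalled.

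Ribosomal protein transcripts are known for a 5' terminal oligopyrimidine tract, a C followed by a run of pyrimidines at the very start of the transcript, through which mTOR controls their translation. The letters at the annotated starts were therefore read from the RefSeq promoter windows (GRCm38.p6), which hold 41 of the 49 proteasome genes and 62 of the 81 ribosomal protein genes. A C followed by 4 pyrimidines at the start was found in 0 of 41 proteasome genes, 12 of 62 ribosomal protein genes and 3.01% of all 27025 genes. Within 15 bases either side of the start, where the annotated position can be off, such a run was found in 43.9%, 66.1% and 40.3%. The windows of 25 bases below run from 10 bases before the start to the 15th base of the transcript, with the first 5 transcribed bases in capitals. The proteasome genes shown are those with the highest IP enrichment, the lowest IP enrichment, the highest TE, the lowest TE of the 19S cap and the low TE of the inducible core subunit, and the ribosomal protein genes shown are examples that carry the tract, chosen after their values were seen.
Psmb5 (chr14:54617981-54618005, minus strand): tgcccttgctAAACAtggcgctggc
Psme4 (chr11:30771765-30771789, plus strand): gctgcagcgtCACCAgaagagccgg
Psmd11 (chr11:80428605-80428629, plus strand): ttccgggtgtGTGTTtccggcgtcg
Psmc5 (chr11:106256175-106256199, plus strand): tgccgagagaGGGAAgatggcgctt
Psmb10 (chr8:105938378-105938402, minus strand): acattcactcACACAcataactaag
Rps10 (chr17:27635230-27635254, minus strand): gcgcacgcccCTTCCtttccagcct
Rps6 (chr4:86857353-86857377, minus strand): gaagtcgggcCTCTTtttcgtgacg
Rpl38 (chr11:114668570-114668594, plus strand): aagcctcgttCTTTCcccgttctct
Rpl15 (chr14:18270972-18270996, minus strand): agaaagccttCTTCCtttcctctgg

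The TE of these 4 ribosomal protein genes fell after AZD-8055 by 1.04 (Rps10), 0.55 (Rps6), 0.80 (Rpl38) and 0.53 (Rpl15) on the log2 scale (edgeR adjusted p from 3.9e-05 to 0.0135). The 5 proteasome genes had TE changes of -0.09 (Psmb5), 0.06 (Psme4), -0.10 (Psmd11), 0.02 (Psmc5) and 0.12 (Psmb10), none of which passed. These chosen examples are no test of the tract. TE was called lower for 68 of 76 ribosomal protein genes, while the tract stood at the annotated start of 12 of 62. Whether the tract accounts for the TE changes was not tested. A match at an annotated start is a description of those letters and does not locate the start used in this tissue.

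Proteasome genes are induced together by the transcription factors Nfe2l1 and Nfe2l2 through antioxidant response elements. The core of that element, TGACNNNGC, searched on both strands, lay in the windows, which begin 250 bases before the start, of 6 of the 41 proteasome genes (14.6%) and 3781 of 27025 genes, and the variant TGAGNNNGC, which cannot match at the same position, in 31.7% and 19.8%. CCAAT was found in 36.6% and 41.1%. The matches nearest upstream of the start in core and cap genes are shown with the element in capitals.
Psmb6 (chr11:70525338-70525356, plus strand, 9 bases before the start): ctaaagagagTGACGGAGC
Psmb5 (chr14:54618024-54618052, minus strand, 47 bases before the start): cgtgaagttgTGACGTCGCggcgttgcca
Psmb3 (chr11:97703414-97703433, plus strand, 10 bases before the start): gcgttgacccTGAGAAAGCc
Psmd12 (chr11:107479490-107479518, plus strand, 28 bases before the start): cctgagtggaTGAGCGGGCgacttccggt

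Of 34 further genes of the pathway, 1 was called after AZD-8055 in TE and in footprints. That gene was Rps27a, which encodes ubiquitin fused to a ribosomal protein, and its TE fell by 1.15 on the log2 scale (edgeR adjusted p = 1.9e-05). The polyubiquitin gene Ubb was at 0.05 in TE. At baseline 21 of the 34 had a TE above typical and 10 below, from the shuttle factor Ubqln4 at -1.27 to the ubiquitin ligase Ube3a at 2.40, and Nfe2l1 was at -0.87. In the RiboTag IP 19 were higher and 8 lower. Pomp, the assembly factor of the 20S core, was the highest at 1.86 ± 0.09 (SE), within the range of the beta ring, and the cap subunits Adrm1 and Shfm1 were at 1.03 and 1.62. Usp14, a de-ubiquitylating enzyme bound to the cap, was at 0.02 and was not called, and AI314180, which tethers core and cap, was at -1.09. Of the transcription factors, Nfe2l1 was enriched at 0.41 and Nfe2l2 was at -3.72.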

How the data were processed

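Right frontal lobes of mice A to D gave RNA-Seq and ribosome footprint libraries, and brain tissue of mice E and F, with no lobe named in the sources, gave input and IP RNA-Seq. Per the labels and the study's methods, the authors trimmed footprint reads, removed rRNA reads with Bowtie2, aligned to mm10 with TopHat2 and counted uniquely mapped reads with HTSeq in strict intersection mode; versions are not given in the sources used here. The deposited values are raw counts per gene, on coding sequence for 12 libraries (3503873 to 15585831 in all) and, for the 8 RNA-Seq libraries, also on exons; 0 columns belonged to other samples.

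From these counts, edgeR 4.0.16 (R 4.3.3; TMM scaling, quasi-likelihood test, Benjamini-Hochberg adjustment over all genes tested, adjusted p threshold 0.05) was fitted to genes averaging 37 counts or more over the libraries of a fit. TE, fitted with all 8 libraries of mice A to D, was the footprint against RNA term in the vehicle mice, and its change was the interaction with AZD-8055. DESeq2 1.42.0, other scalings, filters, fold limits, leaving out each mouse and a replicate block were alternatives. Libraries of the same mouse deviated together across genes (correlations of 0.197 to 0.548), so they are paired by animal. All p-values rest on the spread between 2 mice per group, pooled over the groups of a fit. The main TE fits pooled RNA-Seq and footprint libraries of mice A to D, treated mice included, without a term for the mouse. The scripts were tested on simulated data. Start windows came from RefSeq (GRCm38.p6). Any gene under the symbol rule could be named; the text names called members, each subunit class's extremes and the replaceable catalytic subunits, and of the pathway genes called ones and extremes, with Ubb and Usp14 added after their values were seen. Some genes of the lists are not reported here by name. The members and lists were chosen with earlier results of these data known.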

Additional observations from a re-analysis of the deposited data

How the results depend on the processing

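The replicate block, which pairs the libraries of a mouse, changed no count of calls: 27 proteasome genes were higher and 7 lower in baseline TE, 39 higher and 1 lower in the IP, and 0 were called in the TE change. Requiring a fold over 2 left 1 higher and 1 lower in baseline TE and 24 higher in the IP. Over all 11797 genes tested in baseline TE, 1559 were higher and 2079 lower at that limit. Genes lower in the IP numbered 2 with 8 RNA-Seq libraries in the fit, a mean of at least 10 counts or total counts, 3 with no filter, and 2 when either mouse was left out. Genes lower in footprints after AZD-8055 numbered 0 to 4 when a mouse was left out, with the 4 arising without mouse C, where 482 of 10970 genes were called lower and 355 higher, against 105 and 5 of 10695 with all mice. The median enrichment of 1.07 became 1.54 on coding sequence counts, 1.10 with DESeq2 and with RLE scaling, 1.14 at a mean of at least 10 counts, 0.80 with total counts, and 1.05 to 1.12 without a mouse. The median log2 TE of 0.42 became 0.28 with total counts and 0.38 to 0.41 without a mouse. Calls lost in baseline TE also included Psmb4 (0.20 with no filter, 0.15 with total counts) and Psmd2 (-0.19 without mouse A). Calls gained included Psmc4, lower with total counts (-0.21), and Psmb7, higher without mouse D (0.19). Some genes near 0 changed sign. In baseline TE these were Psmb6 (-0.043 at a mean of 10 counts, -0.082 with no filter, -0.14 with total counts, -0.080 to 0.097 without a mouse), Psmd1 (-0.023), Psmd4 (-0.051), Psmd7 (-0.031) and Psmg3 (-0.017) with total counts, Psmg3 (-0.12 to 0.42 without a mouse) and Psmg1 (0.0049 with DESeq2, 0.0079 with RLE, -0.095 to 0.072 without a mouse). In the IP these were Psmd1 (0.38 on coding sequence, 0.0020 with DESeq2 and RLE, 0.055 at a mean of 10 counts, 0.061 with no filter, -0.066 to 0.044 without a mouse), and with total counts Psmd11 (-0.28), Psmd14 (-0.21) and Psmd5 (-0.10), the last also -0.024 to 0.41 without a mouse. The causes of these shifts were not tested. Footprint depth was lowest in mouse C, and 2 mice per group limit all errors.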
